A study of Mus musculus with 2 samples.

Results

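Basement membranes are thin sheets of extracellular matrix that lie under endothelium and epithelium and around pericytes, smooth muscle cells and cardiomyocytes. Their backbone consists of separate networks of type IV collagen, whose molecules are triple helices of alpha chains, and of laminins, whose molecules join an alpha, a beta and a gamma chain, with nidogens linking the networks. In the heart these sheets carry the capillaries, and muscle cells and fibroblasts attach to them through integrins and dystroglycan. The genes described here are the collagen IV chains Col4a1, Col4a2, Col4a3 and Col4a4, the laminin chains Lama2, Lama4, Lamb1 and Lamc1, and the nidogens Nid1 and Nid2. They were taken by name, as 10 of the 31053 genes counted, and were chosen with earlier results of these data known. Counts of members set beside the share over all genes are therefore descriptive and not a test.

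Live cells from the intact hearts of mice at postnatal day (P) 1 and P7 were sequenced by the 10x Genomics 3′ single cell method, 1 library for each age. In each library 3 hearts from 1 litter were pooled before digestion with collagenase II, which lasted 20 min at P1 and 45 min at P7, and cells excluding the dye 7-AAD were sorted. The pool at P1 held RNA of females and the pool at P7 RNA of males, with 57336 and 12 UMIs of Xist and 2 and 18039 UMIs of Y-linked genes, so age, sex, digestion time and library cannot be told apart. With 1 library per age there is no test between the ages, and the intervals given are 95% intervals that cover counting error only.

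A unique molecular identifier (UMI) marks 1 captured mRNA molecule. The P1 library held 7836 barcodes, of which 4991 were kept as cells with 59026295 UMIs, and the P7 library held 9077, of which 8511 were kept with 97432007 UMIs. The median depth was 10875 and 10104 UMIs per cell. Of the barcode sequences, 18 occurred in both libraries and 13 were kept in both. Cells were assigned to a class by at least 1 UMI of its gate marker and none of the other 5 markers. This gave 1628 endothelial cells at P1 and 3120 at P7 (Cdh5), 1083 and 2113 fibroblasts (Pdgfra), 121 and 313 smooth muscle cells (Myh11), 200 and 337 pericytes (Kcnj8), 225 and 189 macrophages (Csf1r), and 32 and 10 epicardial cells (Upk3b). Cardiomyocytes had no gate, and the study reports that they were underrepresented through low survival and a size unsuited to the sorting. The shares and levels given are therefore those of the sorted cells and not of the whole heart. In both libraries the 5 further markers of each class were more than 2-fold higher in their own class than in the other gated cells together. Levels are given as CPM, the UMIs of a gene for every 1000000 UMIs of the same cells. Pericytes and epicardial cells held the highest sums of fibroblast markers outside the fibroblasts. Pericytes held 5 of these markers at a summed 4812 CPM at P1 and 7597 at P7, and epicardial cells at 9329 and 8148 CPM. Fibroblasts held them at 14743 and 23462 CPM. In epicardial cells the sum came mostly from Dcn (5503 and 4446 CPM) and Col1a1 (3786 and 3550 CPM). Lum stood there at 20.0 and 16.0 CPM, against 1372 and 2678 CPM in fibroblasts. Tcf21 stood there at 4.44 and 136 CPM, against 781 and 915 CPM. Lung-like cells, which held a UMI of a gene of lung mesenchyme or of at least 2 of 7 alveolar genes, numbered 536 at P1 and 308 at P7. As 3′ libraries count an mRNA once whatever its length, levels in CPM were compared between genes without division by length.

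The collagen IV genes lie in head-to-head pairs. In the mouse genome (GRCm38), Col4a1 runs on the minus strand at chr8:11198423-11312826 and Col4a2 on the plus strand at chr8:11312805-11449287, so their annotated starts overlap by 22 bases. Col4a4 runs on the minus strand at chr1:82448423-82586849 and Col4a3 on the plus strand at chr1:82586921-82722059, which leaves 71 bases between their starts. Both shared starts, taken from the plus strand of the RefSeq promoter windows, are shown because the members of each pair are compared throughout, with the letters GGGCGG, known as a GC box, in capitals.
Col4a1 and Col4a2, chr8:11312805-11312826: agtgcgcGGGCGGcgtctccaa
Col4a4 and Col4a3, chr1:82586850-82586920: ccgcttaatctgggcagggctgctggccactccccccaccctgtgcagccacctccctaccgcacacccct
The Col4a1 and Col4a2 start held the GC box letters, whereas the sequence between Col4a4 and Col4a3 held none of the motifs searched on both strands, which were the GC box, the CCAAT box and the TATAAA letters of a TATA box. RefSeq promoter windows of 300 bases were matched for 6 of the 10 genes. GGGCGG occurred in those of Col4a1, Col4a2, Lama2, Lamb1 and Nid1 and in 35.7% of all 32851 windows, CCAAT in those of Col4a1, Col4a2, Lamb1 and Nid1 and in 37.4% of all, and TATAAA in none of the 6 and in 13.6% of all. The GC content was 74.0% for Col4a1 and 73.7% for Col4a2, against a median of 52.7% over all windows.

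The levels of the 10 genes spanned more than 2 orders of magnitude. Over all cells Col4a1, the more abundant chain of the main vascular collagen IV heterotrimer, was counted at 1048 CPM at P1 and 1243 CPM at P7. Its partner Col4a2 stood at 666 and 727 CPM. Nid1 followed at 330 and 410 CPM. Lamb1 (232 and 354 CPM) and Lamc1 (217 and 404 CPM), the beta and gamma chains shared by many laminins, were close to one another. Lama4, the alpha chain of a laminin of vessel walls, stood at 173 and 277 CPM, Lama2, the alpha chain of the muscle laminin merosin, at 96.5 and 189 CPM, and Nid2 at 82.0 and 70.2 CPM. Col4a4 (9.50 and 15.1 CPM) and Col4a3 (2.95 and 4.08 CPM), best known from the glomerular and alveolar basement membranes, were the lowest in both libraries. In the values over all cells, fewer cells of a type and less RNA per cell cannot be told apart.

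**Figure D1:**
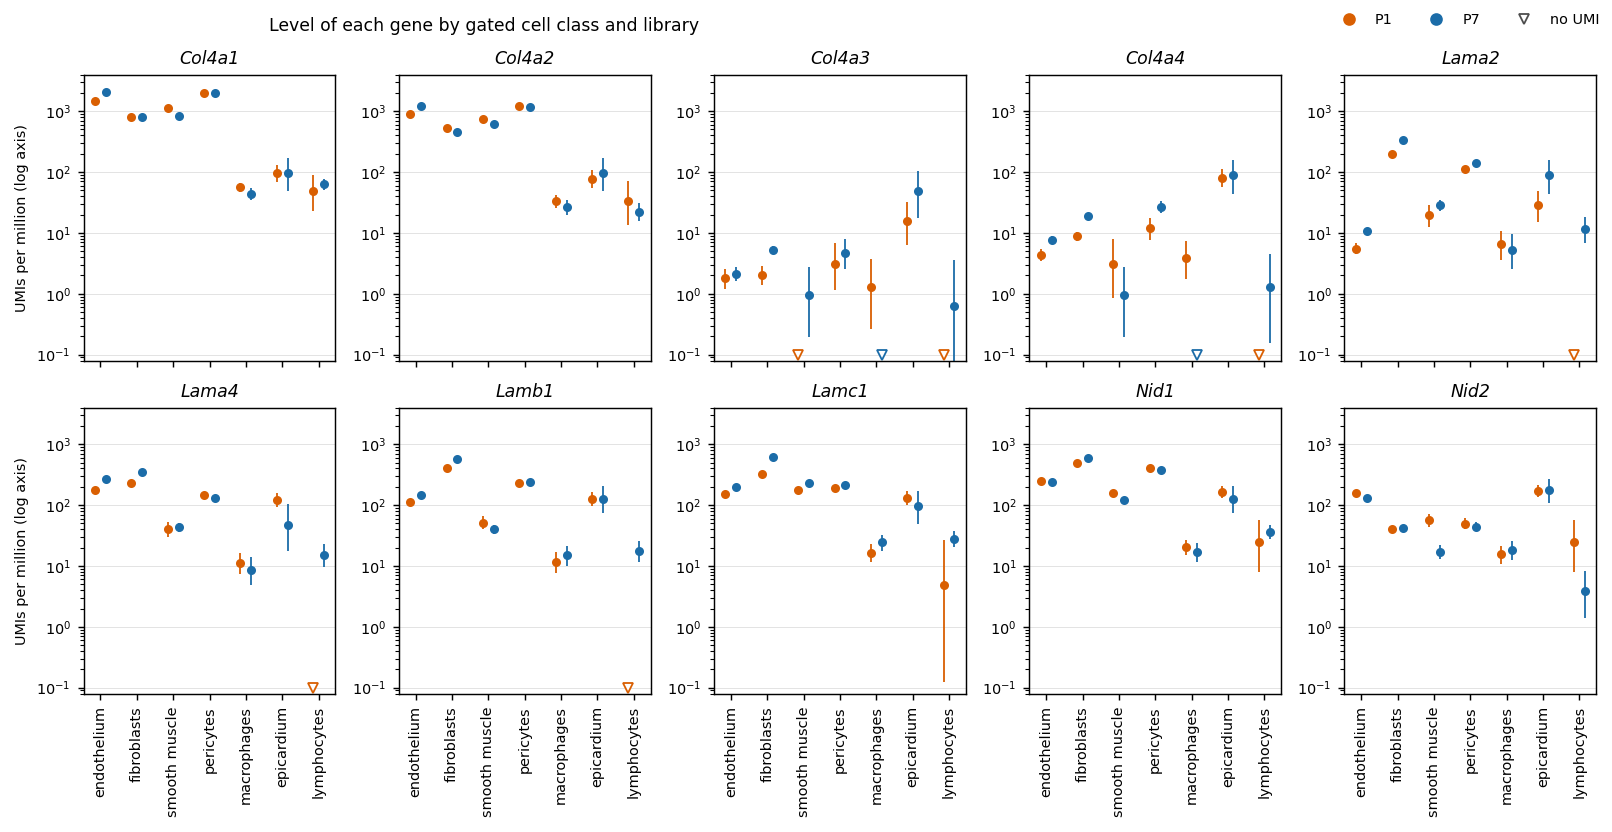
Level of each of the 10 genes in CPM (log axis) in the 6 gated classes and in lymphocytes, for the P1 and the P7 library, with bars for the 95% counting interval and open triangles where no UMI was counted. Col4a1 was highest in pericytes and endothelium, Lama2 in fibroblasts and pericytes, and Nid2 in endothelium and epicardium.

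Endothelium and the cells of the vessel wall held the highest levels of Col4a1 and Col4a2. Col4a1 was counted in the endothelium at 1455 CPM (1437 to 1473) at P1 and 2083 CPM (2066 to 2101) at P7. Fibroblasts held it at 800 CPM (786 to 813) and 789 CPM (780 to 798). The endothelial level was thus 1.82-fold and 2.64-fold that of the fibroblasts. Pericytes stood at 2020 CPM (1957 to 2085) and 1971 CPM (1921 to 2022), above the endothelium at P1 and slightly below it at P7. With each class gated by at least 3 of its 6 markers, pericytes held 2527 and 2107 CPM and endothelium 1461 and 2124 CPM, and their intervals at P7 overlapped (2057 to 2159 and 2108 to 2141). Smooth muscle cells followed at 1118 CPM (1061 to 1178) at P1 and 839 CPM (808 to 872) at P7, the latter close to the fibroblasts. Macrophages, at 56.3 CPM (47.0 to 66.8) and 44.1 CPM (35.1 to 54.7), had intervals that overlapped those of lymphocytes, a blood lineage not known for making basement membrane, at 48.6 CPM (23.3 to 89.4) and 63.5 CPM (51.6 to 77.2), and these values were read as background.

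Col4a2 had the same order of these 4 classes, with overlapping intervals for endothelium (1198 to 1225) and pericytes (1150 to 1229) at P7. For each UMI of Col4a2 there were 1.63 UMIs of Col4a1 in endothelium at P1 and 1.72 at P7, and 1.67 and 1.66 in pericytes. In fibroblasts this ratio was 1.49 (1.45 to 1.53) at P1 and 1.75 (1.71 to 1.78) at P7. In smooth muscle cells the 95% interval of this ratio was 1.38 to 1.63 at P1 and 1.29 to 1.46 at P7. The chains also varied together from cell to cell. After each cell had been thinned to 2000 UMIs, the Pearson correlation of their log counts was 0.47 at P1 and 0.50 at P7 across endothelial cells, 0.51 and 0.57 across pericytes and 0.35 and 0.26 across fibroblasts. These correlations are descriptive, as the cells share a library. In such thinned endothelial cells the median was 3 UMIs of Col4a1 at P1 and 4 at P7, the 90th percentile 6 and 9, and the highest cell 21 and 26, and the variance was 2.18 and 2.37 times the mean. At this depth 87.7% of endothelial cells had a UMI of Col4a1 at P1 and 92.2% at P7, against 5.56% and 10.3% of lymphocytes.

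The genes whose thinned counts followed the sum of Col4a1 and Col4a2 most closely across endothelial cells were mostly not basement membrane genes. Among genes found in at least 10% of the 1512 cells at P1 and 2883 cells at P7, 15 were within the top 20 by Pearson correlation in both libraries. Sparc, a collagen-binding matricellular protein, had r = 0.43 and 0.41, Gpihbp1, which carries lipoprotein lipase to the capillary lumen, 0.42 and 0.42, Cd36, a fatty acid transporter, 0.45 and 0.34, and Sparcl1, a relative of Sparc, 0.40 and 0.44. Mgll, Fabp4, Cav1, Tcf4, Cdh5, Kdr, Cd300lg, Sptbn1, Ly6e, Igfbp7 and Cd81 were the others. Hspg2, another basement membrane gene, ranked 19 and 22 (r = 0.26 and 0.23) and so missed this limit only at P7. Those of the remaining members found in enough cells followed less closely. Nid2 ranked 35 and 54, Lamc1 48 and 75, Lama4 108 and 40, Lamb1 155 and 48, and Nid1 189 and 89. Their means in thinned endothelial cells ran from 0.22 to 0.54 UMIs, against 3.17 and 4.50 for Col4a1. The part of such low counts in these ranks was not tested.

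Nid2 was the most endothelial of the 10 genes, whereas its relative Nid1 was counted mostly in fibroblasts. Nid2 stood in the endothelium at 156 CPM (151 to 162) at P1 and 130 CPM (126 to 135) at P7. Its level in fibroblasts was 40.8 and 41.5 CPM. It was 3.69-fold and 3.31-fold higher in endothelium than in the other 5 gated classes together. Nid2 was the only member, 1 of 10, at least 2-fold higher in endothelium in both libraries, a share close to the 8.69% of all genes tested that passed the same limit. Col4a1 (1.75-fold and 2.48-fold) and Col4a2 (1.64-fold and 2.45-fold) passed it only at P7. The 32 and 10 epicardial cells also held Nid2, at 171 CPM (135 to 213) and 176 CPM (110 to 266). Nid1 was counted in fibroblasts at 486 and 603 CPM, in pericytes at 400 and 378 CPM and in endothelium at 250 and 237 CPM. There were 1.60 and 1.82 UMIs of Nid1 for each UMI of Nid2 in endothelium and 11.9 and 14.5 in fibroblasts.

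The laminin chains other than Lama4 and the nidogen Nid1 formed the fibroblast side of the group. Lama2, Lamb1, Lamc1 and Nid1, 4 of the 10 genes, were at least 2-fold higher in fibroblasts than in the other gated classes in both libraries, against 10.1% of all genes tested. The widest gap was that of Lama2, at 198 CPM (192 to 205) and 342 CPM (336 to 348) in fibroblasts and 12.9-fold and 14.6-fold over the other classes. In endothelium Lama2 was at 5.52 CPM (4.49 to 6.72) at P1 and 10.7 CPM (9.43 to 12.0) at P7. The latter equalled the 11.4 CPM (6.77 to 18.1) of lymphocytes at P7, and the value of Lama2 over all endothelial cells was therefore read as near background. It was not even among them, as the 29 endothelial cells at P7 whose only subset marker was Nr2f2 held Lama2 at 121 CPM (82.6 to 171), from 32 UMIs, against 11.7 CPM in the 53 such cells at P1. With at least 2 UMIs of Cdh5, 2878 cells at P7, the endothelium held Lama2 at 3.94 CPM at P1 and 6.47 CPM at P7. With at least 3 of 6 markers it was 4.05 and 6.33 CPM. Whether the 29 cells were all endothelial was not tested. Pericytes held Lama2 at 112 and 139 CPM, and at 58.6 and 80.8 CPM when gated by at least 3 of their 6 markers. The part of the fibroblast markers of the Kcnj8 gate in this level was not tested. Lamb1 was 3.71-fold and 4.07-fold higher in fibroblasts than in the other classes, Lamc1 2.29-fold and 3.21-fold, and Nid1 2.08-fold and 2.67-fold.

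Lama4 was shared between the main classes. Fibroblasts held it at 227 CPM (220 to 234) at P1 and 353 CPM (347 to 359) at P7, endothelium at 175 CPM (169 to 182) and 264 CPM (258 to 270), and pericytes at 148 and 133 CPM. Smooth muscle cells held 40.8 and 43.5 CPM. In these cells other laminin chains were the more abundant. Lama5, another alpha chain of vascular laminins, stood there at 163 and 195 CPM, so that there were only 0.250 and 0.223 UMIs of Lama4 for each UMI of Lama5, against 24.6 and 23.8 in endothelium. Likewise Lamb2, the other widespread beta chain, stood in smooth muscle at 206 and 283 CPM and exceeded Lamb1, at 51.8 and 40.3 CPM. The gamma chain Lamc1 was counted there at 176 CPM (154 to 201) and 231 CPM (215 to 249).

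**Figure D2:**
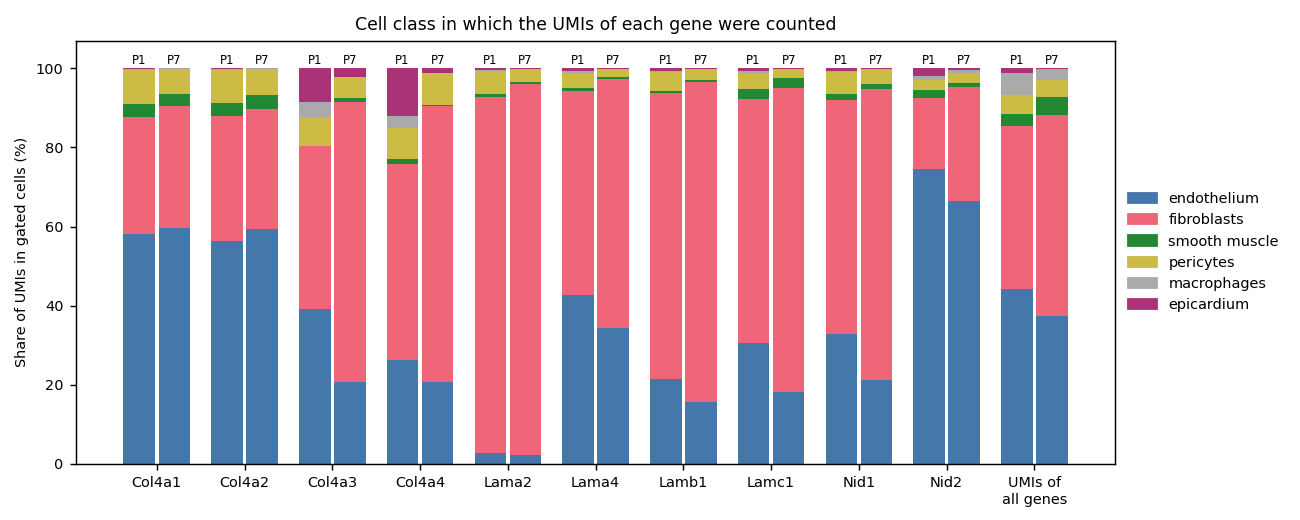
Share of the UMIs of each gene (%, y axis from 0) that was counted in each gated class, for P1 and P7, with the UMIs of all genes in the last columns. Endothelium held most UMIs of Col4a1, Col4a2 and Nid2, and fibroblasts most of those of Lama2, Lamb1, Lamc1 and Nid1.

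Taken as shares of the UMIs in gated cells, the division between endothelium and fibroblasts was plain. Endothelium held 44.1% of all gated UMIs at P1 and 37.4% at P7, but 58.0% and 59.7% of those of Col4a1, 56.4% and 59.4% of Col4a2, and 74.4% and 66.4% of Nid2. Fibroblasts held 41.2% and 51.0% of all gated UMIs, but 90.0% and 93.8% of those of Lama2, 72.2% and 80.9% of Lamb1, 61.6% and 76.9% of Lamc1, and 59.3% and 73.5% of Nid1. As fibroblasts held a larger share of the gated UMIs at P7, the ratios between the ages in gated cells were recomputed with the P7 classes weighted by their UMI shares at P1. The log2 ratio of P1 over P7 in gated cells then moved from -1.03 to -0.77 for Lama2, from -0.90 to -0.72 for Lamc1, from -0.63 to -0.45 for Lamb1, from -0.31 to -0.16 for Nid1 and from -0.24 to -0.31 for Col4a1. For Lama4 it moved from -0.66 to -0.58.

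Between the ages, most members were counted at higher levels at P7. Over all cells 5 of the 10 were past 1.5-fold, all higher at P7, against 7.3% of all genes tested. These were Lama2 (log2 P1 over P7 of -0.97), Lamc1 (-0.90), Lama4 (-0.68), Col4a4 (-0.67) and Lamb1 (-0.61). In gated cells with the class shares of P1, Lama4 (-0.58) was just within the limit and Lamb1 (-0.45) within it. Lama2 (-0.77), Lamc1 (-0.72) and Col4a4 (-0.87) stayed past it. The median of the 10 log2 ratios was -0.54, against -0.01 over all genes.

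In fibroblasts taken as a whole the laminin chains stood higher at P7 and Col4a1 did not. Past 1.5-fold were 5 of the 10 genes, all higher at P7, where 8.1% of all genes tested passed in this direction and 9.72% in the other. Lamc1 was counted at 329 CPM (321 to 338) at P1 and 620 CPM (612 to 628) at P7, a log2 ratio of -0.91. Lama2 (-0.79), Lama4 (-0.64), Col4a4 (-1.09) and Col4a3 (-1.37) were the others. Lama4 was within the limit when at least 2 UMIs of Pdgfra were asked for (-0.56), and Col4a3 in thinned cells (-0.34). Lamb1, at 403 and 566 CPM (-0.49), and Nid1, at 486 and 603 CPM (-0.31), lay on the same side and within the limit. Col4a1 differed by only 0.02 on the log2 scale, and Col4a2, at 536 and 451 CPM (0.25), lay on the other side. The number of Col4a1 UMIs for each UMI of Lamc1 in fibroblasts was accordingly 2.43 (2.35 to 2.51) at P1 and 1.27 (1.25 to 1.29) at P7, while in endothelium it was 9.51 and 10.5. In thinned fibroblasts the share with a UMI was 46.0% and 64.9% for Lamc1 and 32.2% and 49.9% for Lama2.

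In endothelium Col4a1, Col4a2, Col4a4 and Lama4 stood higher at P7 and the nidogens did not. The log2 ratio of P1 over P7 was -0.52 (-0.54 to -0.50) for Col4a1 and -0.44 for Col4a2, from 892 CPM at P1 and 1211 CPM at P7, both within 1.5-fold. Lama4 was just past the limit at -0.59 (-0.65 to -0.53), and within it without lung-like cells (-0.52) and with the 3-marker gate (-0.58). The others past it were Col4a4, at 4.35 and 7.61 CPM (-0.80), and Lama2 near its background level, which made 3 of the 10, all higher at P7, where 7.69% of all genes tested passed in this direction and 7.85% in the other. Lamb1 (112 and 149 CPM, -0.41) and Lamc1 (153 and 199 CPM, -0.38) lay on the same side. Nid1 was at 0.08 and Nid2 at 0.26. Col4a3, from only 32 and 55 UMIs, was at -0.24 with an interval on both sides of 0 (-0.92 to 0.41). The median of the members was -0.43 in endothelium and -0.56 in fibroblasts, against -0.06 and 0.03 over all genes.

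**Figure D3:**
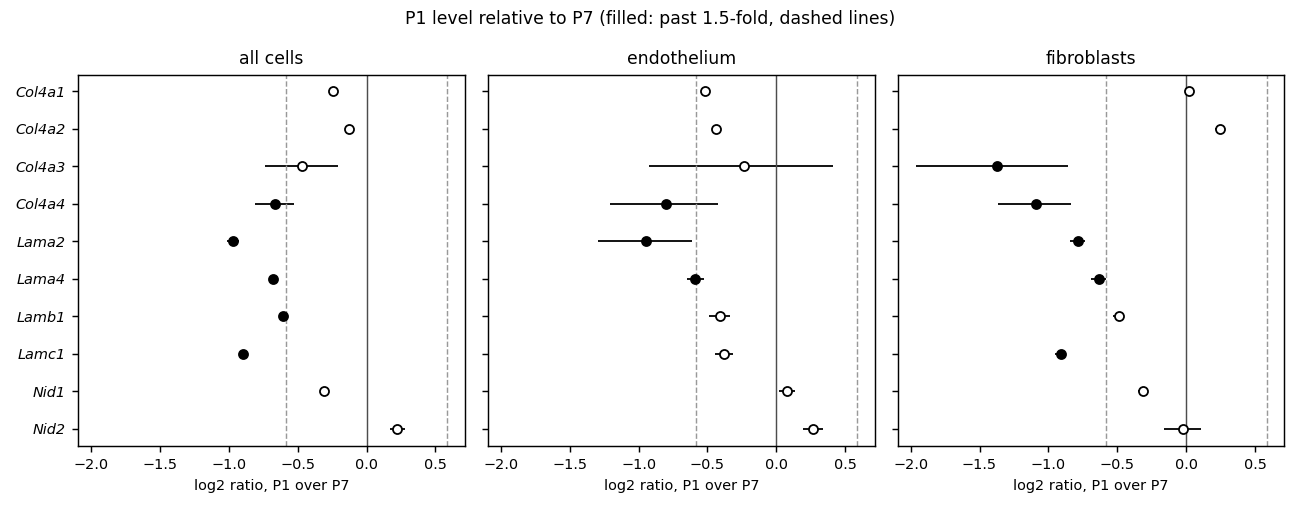
Log2 ratio of the P1 over the P7 level of each gene in all cells, endothelium and fibroblasts, with 95% counting intervals, dashed lines at 1.5-fold and filled points for genes past it. Points left of 0 were higher at P7, as were most laminin chains in fibroblasts and Col4a1 and Col4a2 in endothelium, and Nid2 in endothelium lay to the right.

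Pericytes and smooth muscle cells differed from this pattern. In pericytes Col4a1 was within 0.04 on the log2 scale, Lamc1 stood at 192 and 213 CPM, and the median of the 9 members with enough UMIs was 0.03. Only Col4a4, 1 of 9, was past 1.5-fold, at 11.9 and 26.4 CPM (-1.13), where 6.42% of all genes tested were past it in the direction of P7. With cells gated by at least 3 of the 6 markers it stood at 6.23 and 8.37 CPM (-0.38) and was no longer past the limit. With that gate pericyte Col4a1 was at 0.26 (0.21 to 0.32) and Col4a2 at 0.29 (0.22 to 0.36). In smooth muscle cells Nid2 was the 1 gene of 8 past the limit and was higher at P1, where 9.68% of all genes tested passed in this direction. It was counted at 56.5 CPM (44.2 to 71.1) at P1 and 17.0 CPM (12.8 to 22.2) at P7, from 72 and 54 UMIs, a log2 ratio of 1.73 (1.20 to 2.27). It was 1.80 with the 3-marker gate, 1.71 without lung-like cells and 1.09 when cells were assigned to the marker with the most UMIs. With the 3-marker gate Lamb1 in smooth muscle was also past the limit, at 46.7 and 19.4 CPM (1.27, 0.78 to 1.77). Col4a1 (1118 and 839 CPM, 0.41) and Nid1 (155 and 120 CPM, 0.38) lay on the same side in smooth muscle, and Lamc1 (-0.39) on the other.

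Col4a3 and Col4a4, which form a collagen IV heterotrimer with the product of Col4a5, were rare and patchy. Among the 6 gated classes, each taken whole, their levels were highest in the few epicardial cells. Col4a4 stood there at 79.9 CPM (55.9 to 111) at P1 and 88.0 CPM (43.9 to 157) at P7, and Col4a3 at 15.5 CPM (6.24 to 32.0) and 48.0 CPM (17.6 to 104). Lung-like cells made up 20 of the 32 epicardial cells at P1 and 1 of 10 at P7. The 12 and 9 epicardial cells left without them held Col4a4 at 94.5 and 87.7 CPM. They held Col4a3 at 13.5 and 26.3 CPM, from only 2 and 3 UMIs. Cells gated by at least 3 of the 6 epicardial markers (49 and 27 cells) held Col4a4 at 108 and 107 CPM. At P1 a further source was 106 cells with at least 2 alveolar genes, which held 67 of the 174 Col4a3 UMIs in the library (38.5%) and 104 of the 561 Col4a4 UMIs (18.5%), and at most 1.09% of those of any other member. All genes together gave 1035656 UMIs in these 106 cells, of 59026295 in the cells kept at P1. At P7 there were 9 cells with at least 2 alveolar genes, and they held no UMI of Col4a3 or Col4a4. Fibroblasts held 49.7% and 69.8% of the gated Col4a4 UMIs, at 8.84 CPM (7.47 to 10.4) at P1 and 18.9 CPM (17.5 to 20.4) at P7. In the whole libraries there were 3.22 and 3.69 UMIs of Col4a4 for each UMI of Col4a3.

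Within the endothelium most UMIs of Col4a3 and Col4a4 were counted in the cells with a UMI of Npr3, a receptor known from endocardium. Subsets were taken by at least 1 UMI of a single marker, with other subset markers allowed, and this gate was chosen after the data had been seen. Npr3-positive endothelial cells numbered 300 of 1628 at P1 (18.4%) and 91 of 3120 at P7 (2.92%). Col4a4 was counted in them at 13.8 CPM at P1 and 107 CPM at P7, against 1.71 and 2.78 CPM in Npr3-negative endothelial cells. Col4a3 stood at 6.41 and 30.8 CPM against 0.50 and 0.73 CPM. The log2 ratio between the subsets was 3.00 and 5.27 for Col4a4 and 3.61 (2.43 to 5.14) and 5.39 (4.56 to 6.31) for Col4a3. Npr3-positive cells thus held 25 of the 32 endothelial Col4a3 UMIs at P1 and 37 of 55 at P7, and 54 of 78 and 129 of 198 of those of Col4a4. Without lung-like cells, which left 263 and 90 Npr3-positive cells, the ratio for Col4a3 was 3.78 and 5.32. Col4a4 was not confined to Npr3-positive cells. In cells positive for Npr3 alone it stood at 33.5 CPM at P1 and 132 CPM at P7. Cells positive for Gja5 alone held it at 37.3 CPM at P1 and at a far lower level at P7. In cells positive for Nr2f2 alone Col4a4 was 1.67 CPM at P1 and 49.1 CPM at P7. These differences between the subsets were not tested.

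The Npr3-positive cells were low in the chains that characterised the rest of the endothelium. Nid2 stood in them at 54.3 and 34.1 CPM, against 185 and 135 CPM in Npr3-negative cells (log2 ratio -1.76 and -1.97). In cells positive for Npr3 alone, 46 at P1 and only 6 at P7, Nid2 stood at 20.9 CPM (10.0 to 38.5) and at 103 CPM (41.2 to 211), the latter from 7 UMIs, so that its low level at P7 was not found with this gate. Col4a1 stood at 1085 and 866 CPM against 1558 and 2142 CPM (-0.52 and -1.31), so the gap was wider at P7. Nid1 was slightly higher in them, at 304 and 289 CPM against 235 and 234 CPM. The higher endothelial Col4a1 at P7 was likewise not found in every subset. The log2 ratio of P1 over P7 was -0.47 in Aplnr-positive, -0.42 in Car4-positive, -0.44 in Apln-positive and -0.44 in Nr2f2-positive endothelial cells, but 0.32 in Npr3-positive and 0.25 in Gja5-positive cells. In cells positive for a single subset marker it was -0.28 for Aplnr, -0.29 for Car4, -0.59 (-0.72 to -0.46) for Apln and -0.09 (-0.28 to 0.10) for Nr2f2. Those between-subset differences were not tested.

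**Figure D4:**
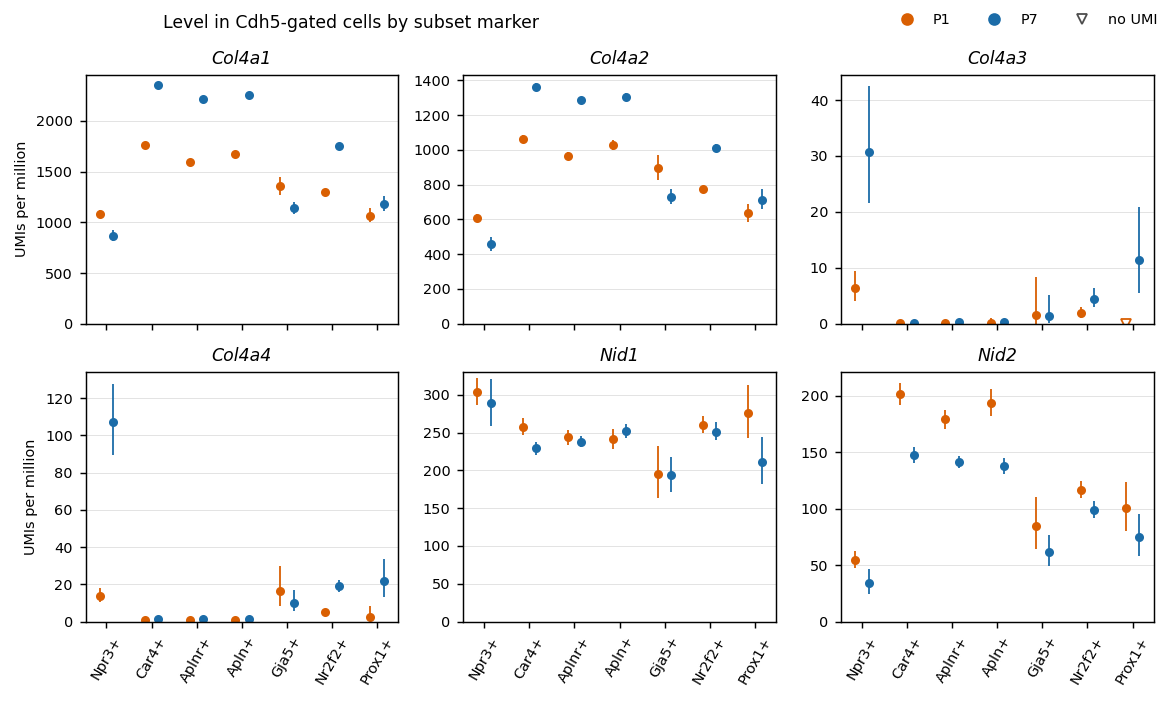
Level (CPM, axes from 0) of Col4a1, Col4a2, Col4a3, Col4a4, Nid1 and Nid2 in endothelial cells positive for each subset marker, at P1 and P7, with bars for the 95% counting interval. Col4a3 was highest in Npr3-positive cells in both libraries, and Col4a4 clearly so at P7 only. At P1 Col4a4 stood slightly higher in Gja5-positive cells, from few UMIs and with overlapping intervals. With this gate, which allows other subset markers, Nid2 was lowest in Npr3-positive and highest in Car4-positive cells.

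Cells positive for the capillary markers Car4, Apln and Aplnr had the highest Col4a1 and Nid2 of the 7 subsets. The 750 and 1398 Car4-positive cells held Col4a1 at 1760 and 2351 CPM and Nid2 at 201 and 147 CPM, and the 867 and 2245 Aplnr-positive cells held 1599 and 2217 CPM and 179 and 141 CPM. The 51 and 158 cells positive for Gja5, an arterial connexin, held Col4a1 at 1354 and 1142 CPM, Nid2 at 84.8 and 61.8 CPM and Col4a4 at 16.7 and 9.94 CPM, from 11 and 14 UMIs. The 65 and 68 cells positive for Prox1, a regulator of lymphatic identity, held Col4a1 at 1066 and 1184 CPM, Nid2 at 100.4 and 75.1 CPM and Lama4 at 215 and 304 CPM. With this gate, which allows other subset markers, Lama4 was thus no lower in Prox1-positive cells than in the endothelium as a whole, unlike Col4a1 and Nid2. In cells positive for Prox1 alone Lama4 stood at 79.9 CPM at P1 and 294 CPM at P7. The interval of its log2 ratio between the ages was wide there (-7.25 to 0.76).

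Among fibroblasts the members also differed between subsets taken in the same way. The 165 and 109 cells positive for Fmod, a fibromodulin gene of dense connective tissue, were low in Lamb1, at 203 and 346 CPM against 440 and 578 CPM in Fmod-negative fibroblasts (log2 ratio -1.12 and -0.74). Col4a1 in them was 411 and 630 CPM against 871 and 798 CPM. The 648 and 1290 Col26a1-positive cells lay higher, with Col4a1 at 908 and 845 CPM and Lamb1 at 468 and 604 CPM. The 165 and 152 Gdf10-positive cells held more Col4a4, at 17.4 CPM (12.7 to 23.3) at P1 and 90.0 CPM (78.4 to 103) at P7, against 7.27 and 13.7 CPM in Gdf10-negative fibroblasts. In the 38 and 32 cells positive for Gdf10 alone Col4a4 was 19.7 CPM (9.47 to 36.3) and 24.2 CPM (11.6 to 44.5), well below the former value at P7. In cells positive for Fmod alone it was 12.0 CPM at P1 and 51.0 CPM at P7. Gdf10-positive cells held less Lama4, at 160 and 196 CPM against 239 and 365 CPM. The 203 and 1419 cells positive for Pi16, a marker of adventitial fibroblasts, held Lama4 at 282 and 386 CPM and Lamc1 at 355 and 669 CPM. The ratios between the ages in fibroblasts as a whole were not found in every subset. In cells positive for Fmod alone, the log2 ratio of P1 over P7 for Col4a1 was -1.36 (-1.66 to -1.06). It was -0.49 for Gdf10, -0.15 for Col26a1 and -0.02 for Pi16 alone. For Lama4 the ratios were 0.08, 0.27, -0.35 and -0.48 in the same order. These differences between the subsets were not tested.

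The other genes of the basement membrane were described as lists with the same limit of 1.5-fold, which over all genes was passed by 7.85% on the side of P1 and 7.69% on that of P7 in endothelium, and by 9.72% and 8.1% in fibroblasts. Of 15 other basement membrane proteins tested in endothelium, 3 were higher at P1 and 5 at P7. Col15a1, a collagen of the outer basement membrane, stood at 46.8 and 169 CPM (-1.85) and Vwa1, a perlecan-binding protein, at 55.0 and 138 CPM (-1.32), whereas Tinagl1, a laminin-binding matricellular protein, stood at 384 and 150 CPM (1.36) and Smoc1 at 21.6 and 5.46 CPM (1.98). Papln (-1.26) and Ntn4 (1.59) were also past the limit. In fibroblasts 2 of 13 were higher at P1 and 3 at P7, with Ntn4, a short laminin-related netrin, at 1.85 and 10.7 CPM (-2.51), Smoc2 at 208 and 372 CPM (-0.84) and Fbln2 at 479 and 722 CPM (-0.59) on the side of P7 and Npnt (2.44) and Tinagl1 (0.76) on the side of P1.

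Of the 4 other laminin and collagen IV chains tested in endothelium, Lama5 was past the limit on the side of P7 (7.14 and 11.1 CPM) and the X-linked Col4a5 on the side of P1 (10.8 and 5.73 CPM). In fibroblasts 4 of the 6 tested were past the limit, all on the side of P7, against 8.1% of all genes tested. Among them were Col4a5, at 15.5 and 42.1 CPM (-1.44), and the also X-linked Col4a6 (-0.90), in libraries of opposite sex. Among 18 genes of collagen IV synthesis and export, 2 were higher at P1 and 2 at P7 in endothelium, and 3 and 1 in fibroblasts, of which 1 of 18 and 2 of 18 are close to the shares over all genes. Serpinh1, the collagen chaperone HSP47, stood in endothelium at 569 and 874 CPM (-0.62) and in fibroblasts at 921 and 1373 CPM (-0.58, within the limit), and Plod1, a lysyl hydroxylase, in endothelium at 101 and 173 CPM (-0.78). P4ha3, a prolyl hydroxylase subunit, lay on the side of P1 in both, at 8.98 and 1.19 CPM (2.89) in endothelium and 43.4 and 12.2 CPM (1.83) in fibroblasts, as did P3h2 (1.96 and 1.14). P4ha2 (-0.69) and Tmem38b (0.66) were past the limit in fibroblasts.

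Of 13 receptors tested, 3 were higher at P1 and 1 at P7 in endothelium, the latter a share close to that over all genes. The latter was Itga1, the alpha subunit of a collagen IV binding integrin, at 77.9 and 222 CPM (-1.51), and those higher at P1 were Itga3 (1.20), Sdc1 (0.93) and Sdc4 (0.85). In fibroblasts 3 of 13 were higher at P1, namely Itga6 (1.06), Sdc4 (1.04) and Mcam (0.94), and 2 at P7, Itga3 (-0.96) and Itga2 (-0.88). Itgb1, the common beta subunit of the laminin and collagen receptors, stood in endothelium at 618 and 707 CPM (-0.19).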

How the data were processed

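Per the labels and the study's methods, 10x 3′ libraries were aligned by the authors to mm10 (GRCm38) with Cell Ranger 3.1.0. The authors deposited unnormalised UMI counts of every gene in every barcode, with no cell filter of the study applied.

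Barcodes with 200 to 8000 genes and at most 20% mitochondrial UMIs were kept. No doublet caller was run. Cells with several gate markers (762 at P1, 1299 at P7) or none (940 and 1130) entered only the values over all cells. Counts were summed per library and class and divided by the summed UMIs to give CPM, with exact Poisson intervals. Log2 ratios used 0.5 added counts and exact conditional binomial intervals, and shares exact Clopper-Pearson intervals. A ratio was past the limit at 1.5-fold with at least 50 summed UMIs. Class folds needed 2-fold in both libraries and 20 UMIs in each. Lymphocytes had at least 2 lymphocyte markers and no gate marker. Cells were thinned to 2000 UMIs with a fixed seed, and shallower cells left out.

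All 10 members were named. From each other list the 3 largest ratios in each direction were eligible, of which 1 is not reported here, and genes like collagen IV were those within the top 20 of both libraries. Member genes and lists were chosen with earlier results of these data known. Python 3.11.15, numpy 2.4.6, scipy 1.17.1 and pandas 2.3.3 were used. The scripts were tested on simulated data. Alternatives covered the mitochondrial limit, the class gate, depth, scaling, the summary over cells, doublets, lung-like cells, the added count, the minimum and the fold.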

Additional observations from a re-analysis of the deposited data

Results flagged for a closer look

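Lama4, the alpha chain of a laminin of vessel walls, lay in opposite directions between the ages in different classes. Its log2 ratio of P1 over P7 was 1.24 (0.13 to 2.85) in the epicardium, from 55 UMIs in 32 cells and 6 UMIs in 10 cells, against -0.59 in the endothelium and -0.64 in fibroblasts. With 1 library per age the difference between the classes was not tested. Without lung-like cells, which left 12 and 9 epicardial cells, the epicardial ratio was 0.92 (-0.58 to 2.84).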

How the results depend on the processing

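Of 611 ratios of P1 over P7 recomputed for 47 results, 588 kept their direction, as did 193 of the 195 for the 15 past 1.5-fold and all 120 ratios of endothelium over fibroblasts. The exceptions past 1.5-fold were Col4a4 over all cells, at 0.015 by the mean of per-cell CPM, and Lama2 in endothelium, at 0.27 in thinned cells. The count past the limit over all cells was 5 and became 3 in thinned cells. In endothelium it was 3 and became 1 with the 3-marker gate and 1 by the mean of per-cell CPM. In fibroblasts it was 5 and became 4 with the 2-UMI gate, where Lama4 was at -0.56, and 4 in thinned cells, where Col4a3 was at -0.34. Single genes also came within the limit, namely Lama4 in endothelium in 5 alternatives (-0.58 to -0.52), Lamb1 over all cells in 4 (-0.57 to -0.43) and Col4a4 in endothelium with the 3-marker gate (-0.50) and by the mean of per-cell CPM (-0.51). With a 2-fold limit the counts were 0 over all cells, 0 in endothelium and 2 in fibroblasts. With a 3-fold limit 2 members, Lama2 and Lamb1, stayed higher in fibroblasts than in the other classes. The causes of these shifts were not tested. For Npr3-positive against Npr3-negative endothelium, 19 of 19 ratios kept their direction without lung-like cells, a choice made after seeing the data. No paired analysis was possible because each age had 1 library and no test was made, and for the same reason no replicate could be left out. Depth limited Col4a3 in smooth muscle, at 0 and 3 UMIs, and all values in the 32 and 10 epicardial cells.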
